A study of Mus musculus with 12 samples.

Results

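The hypoxia-inducible factor (HIF) pathway is described here through 5 named genes, Hif1a, Arnt, Egln1, Vegfa and Mif, in mouse C57BL6 cortical cultures. The genes were chosen by name; all 5 are among the 12145 rows of the deposited count table, and all 5 were among the 12119 genes kept by the filter on low counts. HIF is a transcription factor made of an oxygen-regulated alpha subunit, such as the product of Hif1a, and a constitutive partner encoded by Arnt. In normal oxygen the prolyl hydroxylase encoded by Egln1 marks the alpha subunit for degradation through the von Hippel-Lindau (Vhl) ubiquitin ligase. When oxygen falls the alpha subunit accumulates, largely without new transcription of its gene, and the complex activates targets such as Vegfa, a growth factor for vessels and neurons, and Mif, a secreted cytokine.

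Cultures were prepared from the cortex of embryos at E16.5-E17.5, given lentivirus on day 6 in vitro (total MOI, or viral particles per cell, of 2) and treated on day 14. There were 4 groups, each labelled with 3 libraries: sham-empty (empty virus, buffer change in normal oxygen), sham-miR-29 (miR-29c virus, same sham treatment), OGD-empty and OGD-miR-29. OGD is oxygen-glucose deprivation, a culture model of ischemia, here for 3 h with 4 h of recovery in normal medium; all 4 groups carried a lentivirus, and none was left uninfected. Total RNA depleted of ribosomal RNA was sequenced, and each numbered set of replicates came from cultures of its own dissection day.

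The column labelled sham-empty replicate 3 did not hold read counts. It summed to 22859 and its Spearman correlation across genes with any other column was at most 0.0978, so sham-empty has n = 2 throughout and 11 libraries were analysed. Those summed to 1337564 to 6616920 counts, of which rows of the mitochondrial genome took 57.6% to 84.1%. The 5 genes were sampled thinly, with 2 to 140 counts per library. Neuronal markers were measured for 6 of 6 listed genes, and 0 of 6 endothelial markers were analysed here, among them the VEGF receptor genes Flt1 and Kdr.

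Sequences are shown for the miRNA of the virus and for HIF motif matches. The virus carried miR-29c, which pairs with targets through its seed. The RefSeq mature sequence (GRCm38.p6, chr1:195037600-195037621, plus strand) is shown with the seed, bases 2 to 8, in capitals.
miR-29c-3p: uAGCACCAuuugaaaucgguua

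The core of the HIF binding motif was searched for in its ACGTG form only, on either strand. RefSeq promoter windows ran from 250 bases before to 50 after the start site. ACGTG was found in 6447 of 32851 windows, or 19.6%, and in 4 of the 6 windows of the 5 genes. The stretches of Egln1 (chr8:124949305-124949334, minus strand), Mif (chr10:75860231-75860260, minus strand) and Hif1a (chr12:73907785-73907814, plus strand) are shown as 1 match each from the genes whose first listed RefSeq start held one, in capitals as it reads on the gene's strand. Distances are from the RefSeq start, which differs from the end of the GENCODE gene span given below. The starts of Hif1a (chr12:73907867), Egln1 (chr8:124949254) and Arnt, and the second start listed for Vegfa, lie inside the span. The start of Mif (chr10:75860277) and the first listed for Vegfa lie outside it.
Egln1, 68 bases upstream: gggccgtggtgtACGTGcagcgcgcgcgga
Mif, base 30 of the transcript: actgagctgggtCACGTagctcaggtccct
Hif1a, 70 bases upstream: tggctgagagcaACGTGggctggggtgggg
Hif1a held a further CACGTG palindrome starting 135 bases upstream, read as a match on each strand. The Arnt window and the upstream Vegfa window held 0 matches, and the second Vegfa window held 1. A match of letters is not a binding site, and binding was not measured.

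In the cultures with empty virus the question was which pathway genes differ 4 h after OGD. Mif fell, the regulators Hif1a and Egln1 did not pass the test, and the canonical target Vegfa had a higher mean that did not pass it. Of the 5 genes 1 was called, against 5.09% of the 12119 genes tested. The background is 1.48% higher and 3.61% lower. Calls, here and below, rest on an adjusted p under 0.05 from edgeR's quasi-likelihood test with Benjamini-Hochberg adjustment over all genes, unless another tool is named. The background count of 617 became 1369 with the replicate block.

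Mif (chr10:75859353-75860240, minus strand, a gene of 888 bases) was at 8.95 and 13.3 CPM (counts scaled to the TMM effective library size) in the sham-empty libraries and at 5.25, 5.42 and 2.68 CPM in the OGD-empty libraries. Every OGD-empty value lay below both sham-empty values. The log2 fold change was -1.28 ± 0.36 (SE; adjusted p = 0.0429), lower in 2 of 2 same-numbered pairs. The call was close to the threshold and ended without either sham-empty library, with adjusted p of 0.117 without replicate 1 and 0.525 without replicate 2. It also ended without sham-miR-29 replicate 1, OGD-empty replicate 3 or OGD-miR-29 replicate 1 or 2. In the authors' deposited table, where the use of the left-out column is not stated, Mif had a log2 fold change of -1.03 and a false discovery rate of 0.425. Mouse Mif has processed pseudogenes, so reads that match several copies make its count uncertain.

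Vegfa (chr17:46016993-46032369, minus strand) was at 9.95 and 2.89 CPM in sham-empty and at 10.04, 9.03 and 11.3 CPM in OGD-empty. The sham-empty libraries were far apart, on 10 and 5 counts, and replicate 1 lay within the OGD-empty range. The log2 fold change of 0.82 ± 0.41 (adjusted p = 0.23) had a 95% interval from -0.04 to 1.68, which includes no change. Its size rested on the control libraries, being 0.04 without sham-empty replicate 2 and 1.79 without sham-empty replicate 1. The authors' deposited table gave 0.75 with a false discovery rate of 0.636.

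Among the regulators, Hif1a (chr12:73901375-73947530, plus strand) was at 21.9 and 24.3 CPM in sham-empty and at 21.6, 20.3 and 13.9 CPM in OGD-empty. All 3 OGD-empty values were below both sham-empty values, by a small margin in replicates 1 and 2. The log2 fold change was -0.29 ± 0.28 (adjusted p = 0.56; 95% interval -0.88 to 0.30). The authors' deposited comparison gave 0.02 for Hif1a, of the other sign, with a false discovery rate of 0.988. The row can hold reads of Gm15283, an antisense gene inside Hif1a with 555 counts against 627 for Hif1a over the 11 libraries, since the strand setting of the counting is not given in the sources used here.

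Arnt (chr3:95434388-95497240, plus strand) was at 1.99 and 2.32 CPM in sham-empty and at 5.40, 5.42 and 7.50 CPM in OGD-empty. The groups did not overlap, and the log2 fold change of 1.42 ± 0.54 missed the threshold (adjusted p = 0.122; 95% interval 0.29 to 2.54). The sham-empty libraries gave 6 Arnt counts in all, with an exact Poisson 95% interval of 2.20 to 13.1 counts, which covers counting error only. For Arnt the authors' deposited comparison gave a smaller log2 fold change of 0.59, with a false discovery rate of 0.776. Egln1 (chr8:124908587-124949324, minus strand) was at 8.95 and 5.79 CPM in sham-empty and at 11.1, 5.87 and 8.04 CPM in OGD-empty, overlapping ranges with a log2 fold change of 0.33 ± 0.37 (adjusted p = 0.624; 95% interval -0.44 to 1.09). The authors' deposited comparison gave Egln1 a log2 fold change of 0.06, with a false discovery rate of 0.978. The Egln1 row can hold reads of Sprtn, which lies on the opposite strand within 10 kb of the gene's end and had 280 counts against 334 for Egln1.

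**Figure D1:**
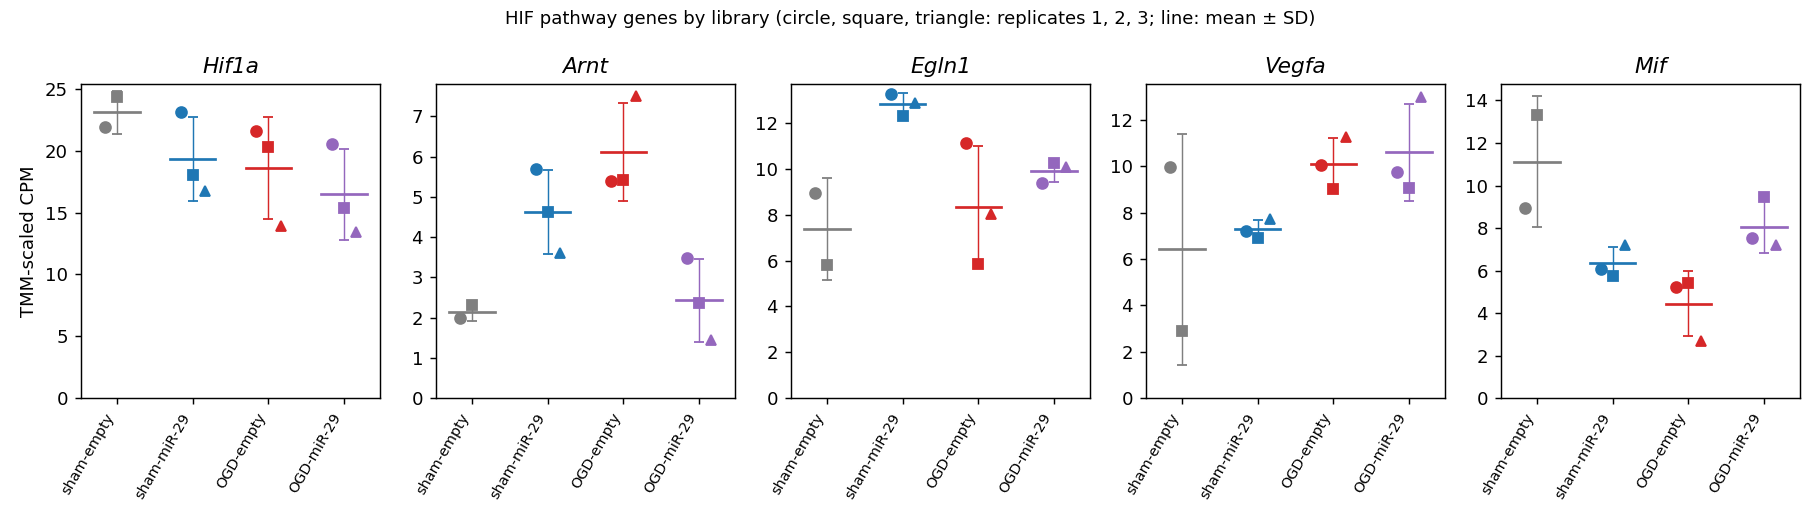
Level of each HIF pathway gene in every library, in TMM-scaled CPM, by group, with the mean and SD as a line and bar and replicates 1, 2 and 3 as circle, square and triangle. Mif was lowest and Arnt highest in OGD-empty, where Arnt was at 5.40 to 7.50 CPM and Mif at 2.68 to 5.42 CPM, and the Vegfa sham-empty libraries lay at 2.89 and 9.95 CPM.

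The OGD-empty libraries also stood apart in a property of the whole library. The slope of log2 level on log10 gene length, relative to the mean library, was 0.19 to 0.46 in the OGD-empty libraries, so that long genes read higher there, against -0.20 to 0.05 in the other 8. Arnt spans 62853 bases and Mif 888. With the length trend of each library removed, the Mif log2 fold change was -0.87 ± 0.36 (adjusted p = 0.199) and that of Arnt 1.18 ± 0.57 (adjusted p = 0.278). Within OGD-empty Arnt was at 5.40, 7.50 and 5.42 CPM in the libraries with slopes of 0.19, 0.21 and 0.46. These levels rest on 12 to 35 Arnt counts per library, and a cause was not tested. The summed level of the neuronal markers was also higher in OGD-empty (938 to 1215 CPM, against 584 to 885 CPM elsewhere), although Tubb3 and Stmn2 had their lowest means there. That of 6 of 7 astrocyte markers was 96.6 to 110.3 CPM against 62.0 to 91.9 CPM, mostly from Slc1a2 (a mean of 57.2 CPM against 24.8 to 39.2), while Aldh1l1 had its lowest mean there and Gja1 and S100b lay within the range of the other groups' means. That of 3 of 6 microglial markers was 18.8 to 28.0 CPM against 28.1 to 40.8 CPM. The part of cell composition in these values was not tested, and in bulk RNA fewer cells of a type cannot be told apart from less RNA per cell.

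**Figure D2:**
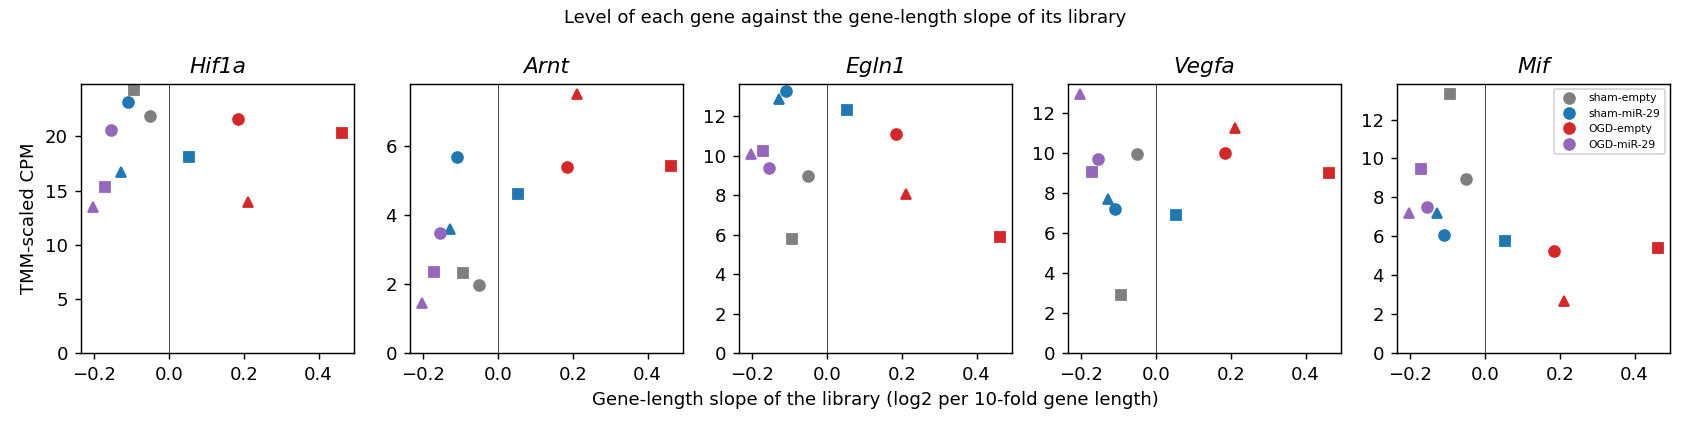
Level of each gene (TMM-scaled CPM) against the gene-length slope of its library, coloured by group, with replicates 1, 2 and 3 as circle, square and triangle. The 3 OGD-empty libraries stand at slopes of 0.19 to 0.46, with Arnt at 5.40 to 7.50 CPM and Mif at 2.68 to 5.42 CPM.

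In the cultures with miR-29 virus, OGD gave no call among the 5 genes. By edgeR 0 of 5 were called and 0 had an unadjusted p under 0.05, DESeq2 and limma-voom called 0, and the background was 0.0165% of genes. Over all 12119 genes 1111 had an unadjusted p under 0.05 by edgeR. Vegfa and Mif were each higher in 3 of 3 same-numbered pairs, and Hif1a, Arnt and Egln1 lower in 3 of 3, without passing the test. The share of all genes with such pairs, or with groups that do not overlap, was not counted. How common either is in groups this small is therefore not known here, and here and elsewhere they only describe the libraries.

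Vegfa was at 7.20, 6.92 and 7.71 CPM in sham-miR-29 and at 9.74, 9.06 and 12.98 CPM in OGD-miR-29. The groups did not overlap, and the log2 fold change was 0.51 ± 0.29 (adjusted p = 0.594; 95% interval -0.09 to 1.11). Its replicates lay closer together here than in sham-empty. Mif was at 6.07, 5.77 and 7.20 CPM in sham-miR-29 and at 7.53, 9.45 and 7.21 CPM in OGD-miR-29. The Mif ranges touched without overlapping, with a log2 fold change of 0.32 ± 0.28 (adjusted p = 0.724; 95% interval -0.27 to 0.91).

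Arnt was at 5.69, 4.61 and 3.60 CPM in sham-miR-29 and at 3.49, 2.36 and 1.44 CPM in OGD-miR-29. These groups were also apart, with a log2 fold change of -0.75 ± 0.37 (adjusted p = 0.551; 95% interval -1.53 to 0.03). Egln1 was at 13.3, 12.3 and 12.9 CPM in sham-miR-29, its highest values in the study, and at 9.37, 10.24 and 10.10 CPM in OGD-miR-29. Its groups did not overlap, and the log2 fold change was -0.38 ± 0.25 (adjusted p = 0.64; 95% interval -0.91 to 0.15). Hif1a was at 23.1, 18.1 and 16.7 CPM in sham-miR-29 and at 20.6, 15.4 and 13.5 CPM in OGD-miR-29, with a log2 fold change of -0.19 ± 0.24 (adjusted p = 0.816; 95% interval -0.68 to 0.30). Its groups overlapped, and in both replicate 1 was the highest.

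The effect of OGD on Mif and on Arnt differed between the viruses, in opposite directions. The difference of the 2 OGD effects (miR-29 minus empty virus) was 1.60 ± 0.46 on the log2 scale for Mif (adjusted p = 0.0347) and -2.17 ± 0.66 for Arnt (adjusted p = 0.0452). Of the 5 genes 2 were called, against 8.38% of all genes (4.72% higher, 3.66% lower), and the background count of 1015 became 1861 with the replicate block. The log2 fold changes with OGD were -1.28 and 0.32 for Mif, and 1.42 and -0.75 for Arnt, under empty and miR-29 virus in turn. Each call ended without 7 of the 11 libraries in turn, both sham-empty, sham-miR-29 replicates 1 and 2, OGD-empty replicate 3 and OGD-miR-29 replicates 2 and 3 (adjusted p of Mif 0.0606 without sham-empty replicate 1 and 0.299 without sham-empty replicate 2, of Arnt 0.117 and 0.197) and with the length trend removed (Mif 1.09 ± 0.46, adjusted p = 0.166; Arnt -1.83 ± 0.68, 0.108). By limma-voom Arnt was not called (adjusted p = 0.0911). The differences for Hif1a (0.10 ± 0.37), Egln1 (-0.71 ± 0.45) and Vegfa (-0.31 ± 0.51) were not called. The interval for Vegfa ran from -1.38 to 0.75, so that these libraries do not tell apart a smaller, an equal or a larger response under miR-29 virus.

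**Figure D3:**
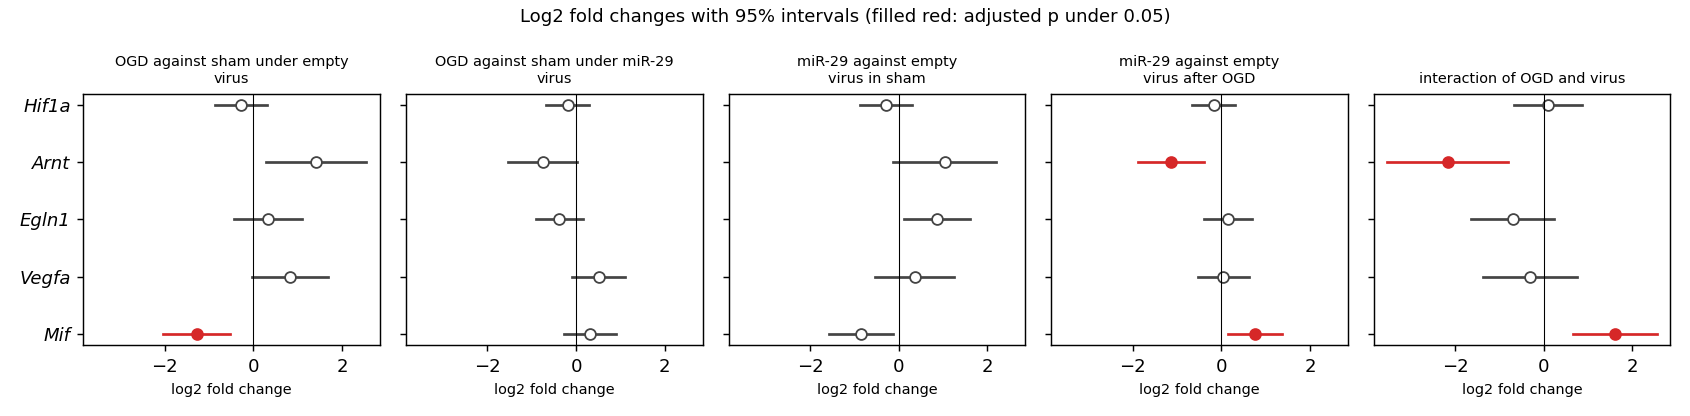
Log2 fold change of each HIF pathway gene with its 95% interval in 5 comparisons, filled red where the adjusted p was under 0.05. Mif is called in OGD against sham under empty virus (-1.28), in miR-29 against empty virus after OGD (0.76) and in the interaction (1.60), and Arnt in the last 2 (-1.13 and -2.17).

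Between the viruses in sham cultures 0 of the 5 genes were called, and 0 of 12119 genes, or 0%, by edgeR, DESeq2 or limma-voom. At an unadjusted p under 0.05 there were 405 of the 12119 genes, a share below 5%, and 2 of the 5 members, Egln1 and Mif. Egln1 was higher with miR-29 virus (0.86 ± 0.36, unadjusted p = 0.026) and Mif lower (-0.84 ± 0.35, unadjusted p = 0.0244), both with an adjusted p of 1.00 and each with groups that did not overlap. Arnt was at 1.04 ± 0.56 (95% interval -0.13 to 2.21). Vegfa was at 0.36 ± 0.43 (-0.53 to 1.26) and Hif1a at -0.27 ± 0.28 (-0.86 to 0.31).

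After OGD the viruses differed in the HIF partner gene Arnt, which was lower with miR-29 virus, and in Mif, which was higher. Of the 5 genes 2 were called, against 37.1% of all genes, a share near the background. Arnt was at 5.40, 5.42 and 7.50 CPM in OGD-empty and at 3.49, 2.36 and 1.44 CPM in OGD-miR-29, with no overlap. The log2 fold change was -1.13 ± 0.36 (adjusted p = 0.0187), lower in 3 of 3 pairs. It was no longer called by DESeq2 (adjusted p = 0.0522) or with the length trend removed (-0.80 ± 0.37, adjusted p = 0.108), nor without OGD-empty replicate 3 or OGD-miR-29 replicate 2 or 3 (0.0647 at most).

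Mif was at 5.25, 5.42 and 2.68 CPM in OGD-empty and at 7.53, 9.45 and 7.21 CPM in OGD-miR-29, every value above those with empty virus. The log2 fold change was 0.76 ± 0.30 (adjusted p = 0.047), higher in 3 of 3 pairs. With the length trend removed it was 0.29 ± 0.30 (adjusted p = 0.506), and by DESeq2 0.78 (adjusted p = 0.126). The call also ended without sham-miR-29 replicate 1 or 3 or any single OGD library, with an adjusted p of 0.142 at most. Vegfa was at 0.05 ± 0.28 (adjusted p = 0.929; 95% interval -0.53 to 0.62), with means of 10.59 ± 2.10 CPM in OGD-miR-29 and 10.11 ± 1.11 CPM in OGD-empty (SD, n = 3). Hif1a (-0.17 ± 0.24, adjusted p = 0.587) and Egln1 (0.15 ± 0.26, adjusted p = 0.896) were not called either.

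Across the 4 groups each gene had its own order of means, given as mean ± SD with n = 2 for sham-empty and n = 3 elsewhere. Hif1a went from 23.1 ± 1.72 CPM in sham-empty through 19.3 ± 3.38 in sham-miR-29 and 18.6 ± 4.11 in OGD-empty to 16.47 ± 3.68 CPM in OGD-miR-29, and each neighbour in this order overlapped the next. Vegfa stood at 6.42 ± 4.99 CPM in sham-empty, 7.28 ± 0.40 in sham-miR-29, 10.11 ± 1.11 in OGD-empty and 10.59 ± 2.10 CPM in OGD-miR-29, and only the step from sham-miR-29 to OGD-empty had no overlap. Egln1 was 7.37 ± 2.24, 8.34 ± 2.64, 9.90 ± 0.47 and 12.8 ± 0.49 CPM in sham-empty, OGD-empty, OGD-miR-29 and sham-miR-29, the last being apart from the others. Arnt had 2.15 ± 0.23, 2.43 ± 1.03, 4.63 ± 1.04 and 6.11 ± 1.21 CPM in sham-empty, OGD-miR-29, sham-miR-29 and OGD-empty, and Mif 4.45 ± 1.54, 6.34 ± 0.76, 8.07 ± 1.21 and 11.1 ± 3.08 CPM in OGD-empty, sham-miR-29, OGD-miR-29 and sham-empty. For Arnt the step from OGD-miR-29 to sham-miR-29, and for Mif the steps from OGD-empty to sham-miR-29 to OGD-miR-29, had no overlap. The orders of Arnt and Mif were the reverse of each other, and over the 11 libraries the Pearson correlation of their log2 CPM was -0.79, a description over libraries that share depth and the length slope.

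The genes whose profiles over the 11 libraries were most like those of the members were found by Pearson correlation of log2 CPM among 7855 genes with a mean count of at least 20. For Arnt these were Mapk8 (0.98), 9430091E24Rik (0.93) and Vkorc1l1 (0.93), and for Mif Arpc1b (0.96), Gm24243 (0.93) and Slc35b1 (0.91). For Vegfa they were Ttc13 (0.89), Svop (0.87) and Glt8d1 (0.85), for Hif1a Lrrc14b (0.89), Acad11 (0.88) and Tm9sf2 (0.86), and for Egln1 LRRC8A (0.88), Lsm11 (0.83) and Ell (0.83). These values describe shared variation, library properties included.

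The wider pathway was read through 57 listed genes, of which 41 were tested and the others, Epas1 and Egln3 among them, were not analysed here. After OGD under empty virus Mif was the 1 called gene of the 41, beside 5.09% of all genes, and their median log2 fold change was 0.17, against 0.02 over all genes. Apart from the 5 members 0 of 36 were called by edgeR and limma-voom and 1 by DESeq2 (Aldoa, adjusted p = 0.0473), with 6 at an unadjusted p under 0.05 beside 2876 of all 12119 genes. The asparaginyl hydroxylase gene Hif1an, which limits HIF activity in normal oxygen, was at 1.38 ± 0.49 (adjusted p = 0.0957) and was called in the fit with both length trend and replicate block (1.75 ± 0.48, adjusted p = 0.0268). The Arnt paralogue Arnt2, abundant in neurons, was at 0.43 ± 0.23, Egln2 at 0.18 ± 0.44 and Vhl at -0.33 ± 0.32. Of 11 metabolic targets 5 had positive and 6 had negative folds. The glucose transporters went both ways, with Slc2a1 at 0.58 ± 0.60 (adjusted p = 0.577) and Slc2a3 at -0.57 ± 0.22 (adjusted p = 0.124). Slc2a1 had only 1 and 8 counts in the sham-empty libraries. The glycolytic Aldoa was at -0.65 ± 0.20 (adjusted p = 0.0632). Under miR-29 virus 0 of 41 were called by any of the 3 tools, with a median of 0.12 against 0.00 over all genes. At an unadjusted p under 0.05 by edgeR there were 6 of the 41, beside 1111 of all 12119 genes.

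Between the viruses after OGD 15 of the 41 were called, 10 higher and 5 lower with miR-29 virus, beside 37.1% of all genes, 17.2% higher and 19.9% lower. The share called was near the background, so the calls named here are not a trait of the list. The median log2 fold change was 0.21, against 0.02 over all genes. Lower was Nrp1, a co-receptor for VEGF and semaphorins (-1.64 ± 0.26, adjusted p = 0.000542), from 24.8 ± 6.46 CPM in OGD-empty to 7.39 ± 2.36 CPM in OGD-miR-29. Subunits of the Vhl ubiquitin ligase were called in both directions. Lower were the scaffold Cul2 (-0.99 ± 0.27, adjusted p = 0.0082) and elongin B, listed as Tceb2 (-0.87 ± 0.22, adjusted p = 0.00469), whose row can hold reads of Srrm2. Higher were the RING subunit Rbx1 (0.82 ± 0.26, adjusted p = 0.0183) and Vhl itself, given below. Metabolic genes called higher were Aldoa (0.90 ± 0.18, adjusted p = 0.00132), the lactate dehydrogenase Ldha (0.80 ± 0.21, adjusted p = 0.00631) and the neuronal glucose transporter Slc2a3 (0.62 ± 0.19, adjusted p = 0.0162). Other listed targets called higher were Bnip3 (0.64), Hmox1 (0.73) and P4ha1 (0.75). The Bnip3 row can hold reads of Ppp2r2d, with 816 counts against 539 for Bnip3.

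Among close relatives of the members, Arnt2 was lower (-0.54 ± 0.20, adjusted p = 0.039) and Vhl higher (0.65 ± 0.24, adjusted p = 0.0412). The Vhl row can hold reads of 1700015O11Rik and Irak2, with 382 and 320 counts against 412 for Vhl. Egln2 (0.45 ± 0.31) and Hif1an (-0.66 ± 0.32) were not called. In the fit with both length trend and replicate block, Nrp1 (-0.84 ± 0.23, adjusted p = 0.00774), Cul2, Tceb2, Ldha and Slc2a3 stayed called. So did P4ha1 (0.94 ± 0.28, adjusted p = 0.014) and the Epo row (0.85 ± 0.19, adjusted p = 0.00123). Newly called there were Hif1an (-0.95 ± 0.29, adjusted p = 0.0159) and Cited2 (-0.75 ± 0.27, adjusted p = 0.0435), lower, and Hk1 (0.65 ± 0.19, adjusted p = 0.0105), higher. Aldoa (0.46 ± 0.18, adjusted p = 0.0584), Vhl (0.24 ± 0.23, 0.472), Rbx1 (0.44 ± 0.23, 0.16) and Arnt2 did not stay called, and Arnt2 turned to the higher side (0.31 ± 0.18, adjusted p = 0.204). Bnip3 (0.44 ± 0.21, adjusted p = 0.13) and Hmox1 (0.33 ± 0.21, adjusted p = 0.274) did not stay called either. Epo was called higher (0.62 ± 0.20, adjusted p = 0.0234), but its row had 1342 counts where the neighbouring Gigyf1 had 1343, so the count cannot be given to Epo alone. In the interaction 4 of the 41 were called, beside 8.38% of all genes, a share near the background. They were Mif, Arnt, Nrp1 (-1.59 ± 0.40, adjusted p = 0.0213) and Aldoa (0.98 ± 0.27, adjusted p = 0.0326), and with the replicate block 7 were called. In the fit with both length trend and replicate block these 4 were not called, Nrp1 being at -0.80 ± 0.37 (adjusted p = 0.185) and Aldoa at 0.52 ± 0.28 (0.254), whereas Hif1an (-2.07 ± 0.58, 0.0229), Slc2a3 (1.11 ± 0.29, 0.0148) and Tceb2 (-1.50 ± 0.32, 0.00336) were.

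**Figure D4:**
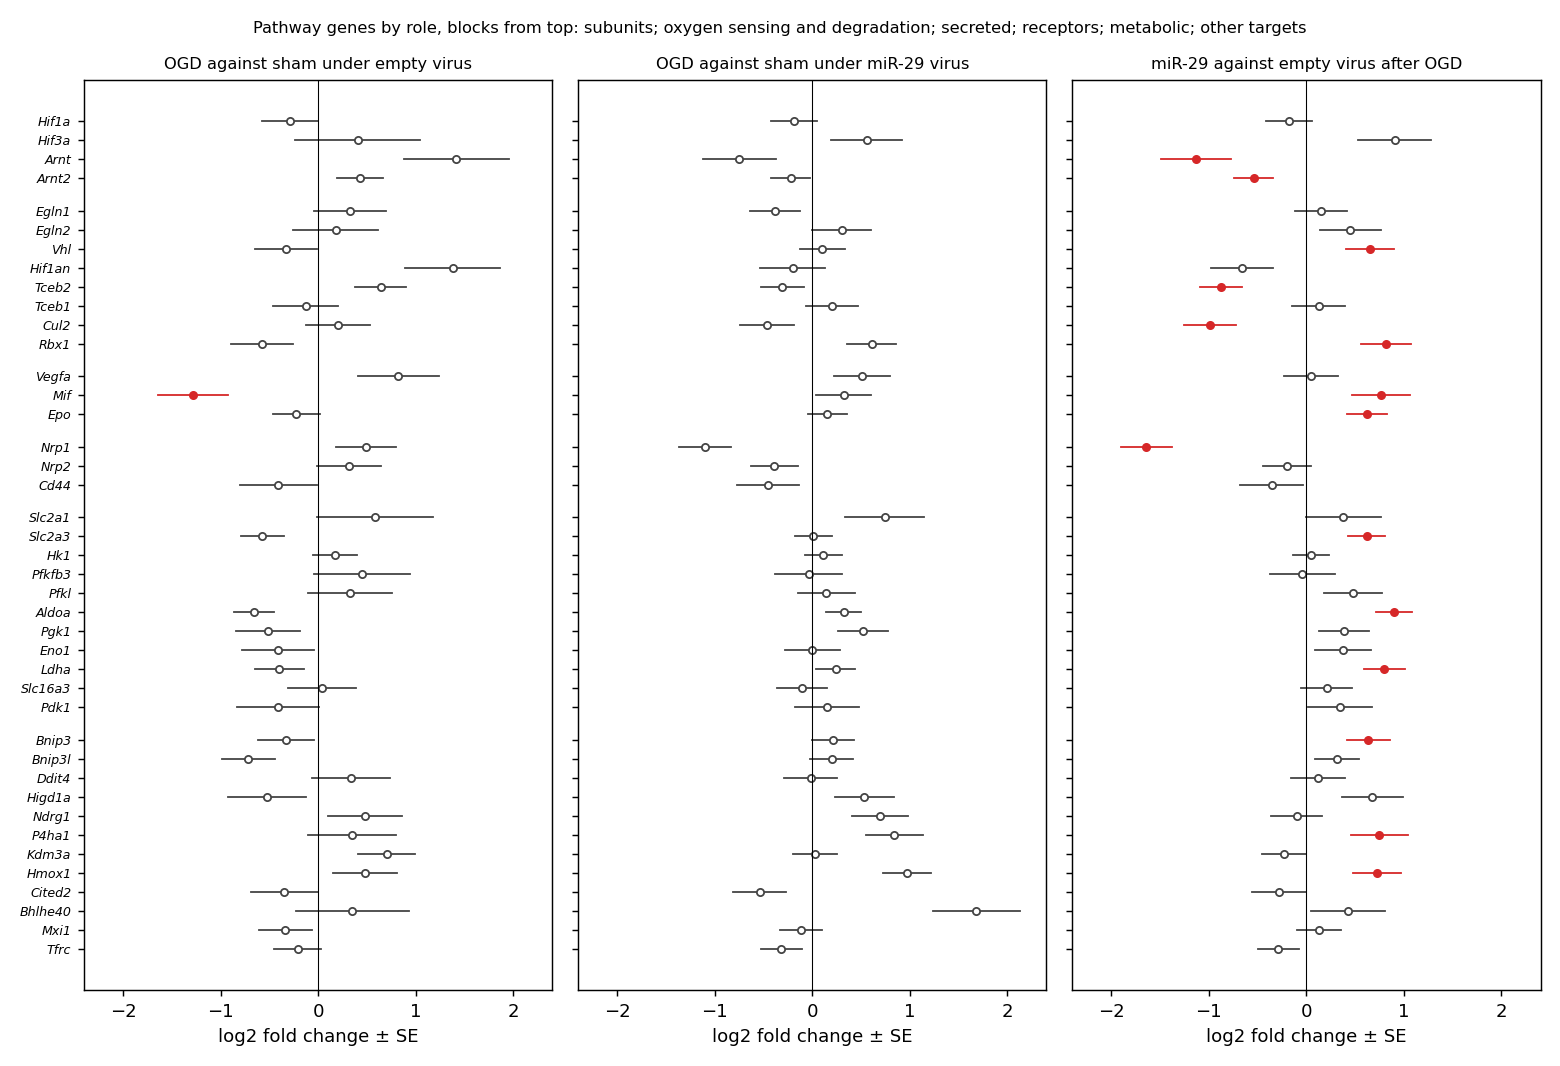
Log2 fold change ± SE of 41 HIF pathway genes, in blocks by role, in 3 comparisons, filled red where the adjusted p was under 0.05. Under empty virus Mif alone is red, under miR-29 virus 0 are, and between the viruses after OGD 10 are higher and 5 lower.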

How the data were processed

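Whole-number counts per gene symbol were deposited by the authors without normalization. Per the submitters' processing notes the tools were featureCounts 1.4.3-p1, STAR 2.5.0a and edgeR, with build mm10; annotation, strand and counting region are not given in the sources used here. Comparison tables deposited by the authors hold, per the file headers, log2 fold changes and log2 CPM, a likelihood ratio score, p-values and false discovery rates; the libraries behind them are not stated. Of the per-sample columns 0 were unmapped. One column, not read counts, was left out.

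Genes were tested in 1 fit of 11 libraries with 4 group means (edgeR 4.0.16, R 4.3.3; robust quasi-likelihood F test, TMM, filterByExpr). CPM are TMM-scaled. The SE is the log2 fold change over the root of F, and 95% intervals follow from it; for thinly counted genes edgeR's p can be larger than F alone gives. Log2 CPM used a prior count of 2. The test was checked on simulated counts with the same spread for all genes and no length trend or replicate effect. That check does not cover those features of the real libraries. Alternatives were DESeq2 1.42.0, limma-voom (limma 3.58.1), other scaling and filters, a replicate block, a lowess gene-length trend (GENCODE M21 gene spans) and omission of each library. Where 1 sham-empty library is left, it is assumed to vary like the other groups.

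The design text gives each set of replicates its own dissection day, read here as a pairing by number; same-numbered libraries had a median correlation of deviations of 0.01 (-0.09 to 0.23). Reads can be counted for neighbouring genes, so genes within the span or 10 kb downstream were looked up. Matches to the miR-29 seed in 3′ UTRs are not reported here. Members and lists were chosen with earlier results of these data known. Named from the list were all called genes, or the 6 of lowest adjusted p, and Epas1, Arnt2, Egln2, Egln3, Vhl and Hif1an. Slc2a1, Epo, Rbx1, Bnip3, Hmox1, P4ha1, Cited2, Hk1 and, under empty virus, Aldoa and Slc2a3 were chosen after their values were seen.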

Additional observations from a re-analysis of the deposited data

Results flagged for a closer look

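The OGD effect differed between miR-29 and empty virus, by the interaction term of edgeR's quasi-likelihood test, for 4 of the 41 pathway genes, beside 8.38% of all genes. That share was near the background, so these calls are not a trait of the list. The differences were -2.17 for Arnt, 1.60 for Mif, -1.59 for Nrp1 and 0.98 for Aldoa on the log2 scale. With the length trend removed and a replicate block fitted, all 4 missed the threshold (adjusted p 0.105 to 0.254). Groups of 2 or 3 libraries are too small for a search for single outlying libraries.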

How the results depend on the processing

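Depth limits the 5 genes, at 2 to 140 counts per library, and the 2 sham-empty libraries limit every contrast with that group. The number of members called under empty virus (1) was 0 by DESeq2, which gave 3 of the 5 an adjusted p and none to Mif, 0 with only the 2 groups compared, 0 in both length-trend fits (with and without the replicate block), and 0 to 1 without single libraries. Between the viruses after OGD (2) it was 0 by DESeq2, 1 with only the 2 groups, 0 in both length-trend fits, and 0 to 2 without single libraries. In the interaction (2) it was 0 by DESeq2, which gave 2 of the 5 an adjusted p, 1 by limma-voom, 0 in both length-trend fits, and 0 to 2 without single libraries. It stayed 0 in the other 2 comparisons under all 20 alternatives ("without the length trend" below means with it removed), and the replicate block alone changed no member's call.

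The Mif call under empty virus held in 10 of 19 alternatives with an adjusted p (0.0403 to 0.525), that after OGD in 8 of 20 (0.0449 to 0.521) and in the interaction in 9 of 18 (0.0236 to 0.299). Arnt held in 14 of 20 (0.0164 to 0.11) and 8 of 18 (0.0291 to 0.197). The sign of both was the same throughout.

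Uncalled folds that changed sign were those of Hif1a after OGD (0.018 with the length trend removed, 0.025 with the block added) and in the interaction (-0.015 under the replicate block; -0.11 to 0.25 without single libraries), and of Vegfa after OGD (-0.19 in both length-trend fits; -0.088 to 0.14 without single libraries). Without single libraries they were also Vegfa in sham (-0.41 to 1.34) and in the interaction (-1.27 to 0.49), and Egln1 under empty virus (-0.030 to 0.61) and after OGD (-0.076 to 0.51). Causes were not tested.

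Over all genes the 617 calls under empty virus became 1369 under the replicate block, 309 without the length trend, 201 with only the 2 groups and 12 to 984 without single libraries (12 without sham-empty replicate 1, 76 without replicate 2). The 2 under miR-29 virus became 5 with the block, 5 with only the 2 groups, 18 without the length trend, 25 with both and 2 to 21 without single libraries. The 4501 after OGD became 2736 without the length trend. The 1015 of the interaction became 1861 with the block, 566 without the length trend and 64 to 1516 without single libraries (64 and 93 without a sham-empty library). List calls after OGD (15) were 8 by DESeq2 and 8 to 15 without single libraries, and in the interaction (4) 2 by DESeq2 and without the length trend, 7 with the block and 0 to 5 without single libraries. Under empty virus (1) they were 2 without the length trend, 3 with both (Hif1an, Slc2a3 and Tceb2), 0 with only the 2 groups and 0 to 1 without single libraries.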
